A study of Sus scrofa with 6 samples.

Results

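Small nuclear RNAs (snRNAs) are short, non-coding RNAs that build the spliceosome together with proteins. U1 pairs with the 5′ splice site, U2 with the branch point, and U4, U5 and U6 join as a tri-snRNP from which the catalytic core forms. U11, U12, U4atac and U6atac do the same work on the rare minor introns. Mammalian genomes carry the genes of these RNAs in several copies, and many more copies that resemble them and are mostly pseudogenes.

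The snRNA clusters of the Porcine Gene 1.0 ST array were taken as all probe sets of the array's own gene content (categories main and rescue) whose annotation gives the Ensembl biotype snRNA. This yielded 610 rows, all of category main, and 551 clusters when rows with the same 6 values were counted once, out of 24889 distinct clusters tested. They stand for 549 Ensembl genes on 19 array chromosomes, and 39 of the rows lie on unplaced scaffolds of the pig build Sscrofa10.2. A name was found for 2 of the 551, U5 and U12. The other 549 are therefore given by their position on Sscrofa10.2, their annotated length and their transcript cluster number, and no U1, U2, U4 or U6 name is assigned to any of them.

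The samples were liver biopsies of pigs after extended partial hepatectomy (ePHx), 3 arrays from animals given mesenchymal stromal cells (MSC) and 3 from vehicle controls. By the methods all animals were adult male German landrace pigs, the MSC came from porcine bone marrow, had been driven towards hepatocyte-like cells in culture and were infused into a central vein, and the control animals received Ringer solution. All 6 arrays thus share the resection, and none stands for an unoperated liver. The methods place the arrays of a group on different animals, which the labels do not name, so p-values measure the spread between these 6 samples.

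The median over all tested clusters lay between 6.52 and 6.60 log2 units on each array. The deposited values were quantile normalized, so this closeness does not compare the arrays in raw signal or quality. As a measure of background, 23 antigenomic probe sets, which match no gene, had a median mean signal of 3.95 and a 95th percentile of 8.18. The tissue label fits the signals of 7 measured hepatocyte markers (such as albumin), which averaged 12.26 to 12.53 in MSC livers and 12.04 to 12.49 in controls.

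Most snRNA clusters gave weak signals. Their mean over the 6 arrays ran between 1.58 and 9.95 log2 units with a median of 3.25, against 6.57 for all tested clusters. A mean at or above the antigenomic median was reached by 203 of 551 (36.8%), against 88.3% of all tested clusters, and 8 reached the antigenomic 95th percentile. Probe sets differ in affinity, so these signals do not rank the RNAs by amount.

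The annotation codes whether a cluster's probes also match other transcripts. Of the 551 clusters, 131 have probes that are unique to them (crosshyb_type 1), with a median signal of 3.39 and a highest one of 7.79. The remaining 420 have a mixture of unique and shared probes (crosshyb_type 3), with a median of 3.19 and a highest of 9.95, and all 8 clusters above the antigenomic 95th percentile are among them. Clusters of type 3 can thus read RNA of their near copies as well, and they are not independent of each other. A cluster has between 3 and 25 probes (median 11).

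Setting MSC livers against control livers shows which transcripts of the remnant liver differed once the cells had been given. The threshold was the study's for limma, an unadjusted p under 0.05 and a log2 difference of at least 0.5. The paper applied it to signals summarised with another annotation. Past it, 43 of 551 snRNA clusters (7.80%) were lower in MSC livers, beside 1.44% of all distinct clusters tested. Higher in MSC livers were 9 (1.63%), beside 1.24% of all tested. The difference, MSC minus control, was negative in 346 clusters (62.8%), against 53.1% over all tested, and its median was −0.075 against −0.014. In 59 clusters (10.71%) all MSC values lay below all control values, beside 5.89% of all tested, and in 12 (2.18%) they lay above, beside 5.67%. After Benjamini-Hochberg adjustment over all tested clusters no snRNA cluster passed, the lowest adjusted p in limma being 0.272, while 77 had an unadjusted p under 0.05, beside 6.49% of all tested. These counts moved with single arrays, since 58 clusters (10.53%) were lower without control 1, beside 4.74% of all tested, and 34 (6.17%) were lower without control 2, beside 0.99%. The higher count was 5 without control 3.

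**Figure D1:**
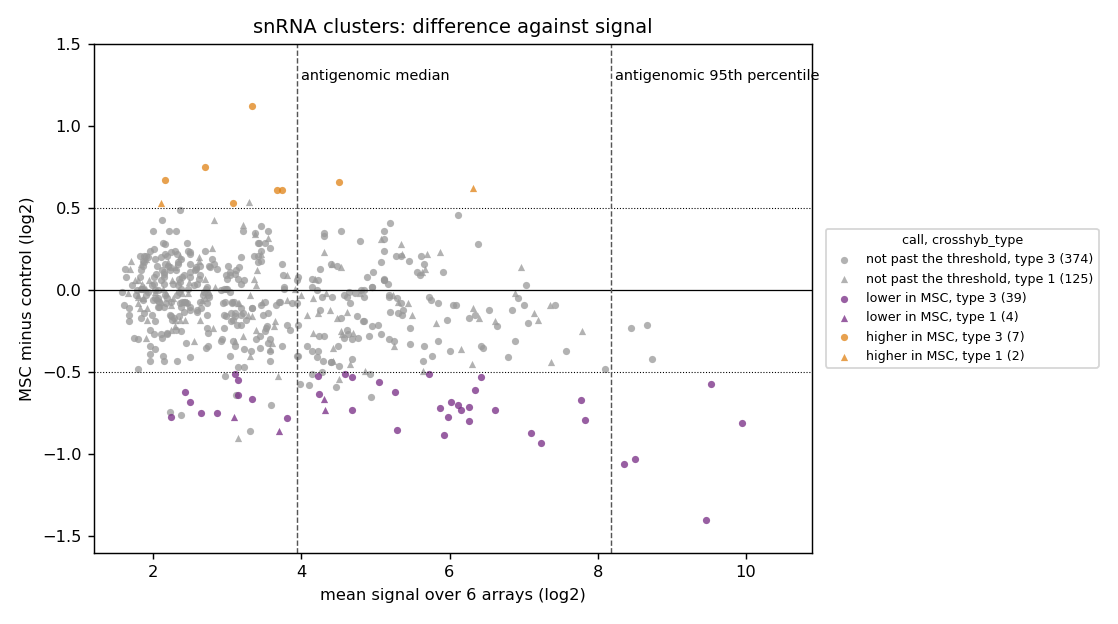
Each point is 1 of 551 snRNA clusters, with the mean signal over 6 arrays (log2) on the x axis and the difference MSC minus control (log2) on the y axis; dashed lines are the antigenomic median (3.95) and 95th percentile (8.18), dotted lines mark 0.5 log2 units. The 43 clusters lower in MSC lie mostly right of the antigenomic median (31 of 43), whereas 7 of the 9 higher ones lie left of the antigenomic median.

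The strongest fall was on chromosome X, in a cluster of 107 bases read by 4 probes (15337403, ENSSSCG00000022239, chrX:85960240-85960346, minus strand). Its signal was 8.40, 8.91 and 8.96 in MSC livers and 10.06, 10.40 and 10.01 in control livers. The groups were separated by more than 1 log2 unit, the difference being −1.40 (95% interval −1.84 to −0.96, 2.64-fold lower, limma adjusted p = 0.272). On the opposite strand of the same locus lies DIAPH2, a formin that organises actin, whose own cluster differed by −0.20 and did not pass the threshold.

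The brightest of all snRNA clusters also fell. This cluster of 164 bases on chromosome 6 (15305506, ENSSSCG00000030650, chr6:79148195-79148358, minus strand, 13 probes) read 9.53, 9.67 and 9.44 in MSC livers and 10.20, 10.44 and 10.44 in controls. The spread within either group was small against the difference of −0.81 (−1.11 to −0.51, limma adjusted p = 0.578). Less than 1 Mb further along the chromosome a cluster of 107 bases (15305305, chr6:80016571-80016677) read 5.43, 5.89 and 5.16 in MSC livers and 6.18, 6.41 and 6.51 in controls, a difference of −0.88 (−1.34 to −0.42). It lies on the same strand within the MECR cluster, a gene of mitochondrial fatty acid synthesis, which differed by 0.14.

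On chromosome 11 a cluster of 107 bases with 4 probes (15204373, chr11:76496570-76496676) read 7.32, 8.46 and 7.67 in MSC livers and 8.58, 8.77 and 9.28 in controls. MSC 2 came close to the lowest control, and the difference was −1.06 (−1.76 to −0.35, limma adjusted p = 0.736). On chromosome 1 a cluster of 126 bases with 25 probes (15191455, chr1:307553518-307553643, 2 rows of the array) read 6.53, 7.04 and 6.42 in MSC livers and 7.30, 7.94 and 7.35 in controls, with a difference of −0.87 (−1.40 to −0.34). On chromosome 10 (15202724, chr10:51303571-51303677) MSC livers read 5.67, 5.94 and 6.0 and controls 6.55, 6.53 and 6.91, a difference of −0.80 (−1.16 to −0.44, limma adjusted p = 0.702). All 3 of these clusters passed the threshold with each array left out in turn.

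Only 1 of the 10 largest falls without overlap belonged to a cluster with unique probes. This is a cluster of 99 bases on chromosome 4 (15286740, chr4:131892070-131892168), which read 3.03, 3.49 and 3.29 in MSC livers and 4.33, 3.80 and 4.27 in controls, a difference of −0.86 (−1.29 to −0.43). Its MSC values lie under the antigenomic median, and it kept its call with each array left out.

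The other 3 of the largest falls depended on single arrays. On chromosome 3 a cluster of 107 bases (15274698, chr3:41526989-41527095) read 4.38, 5.46 and 4.76 in MSC livers and 5.53, 6.08 and 5.53 in controls. Its difference was −0.85, against −0.60 without MSC 1 and −0.66 without control 2, where it missed the threshold. On chromosome 2 (15256278, chr2:73770702-73770808, 3 probes) MSC livers read 7.05, 7.56 and 7.69 and controls 7.86, 8.70 and 8.11. That difference was −0.79, and −0.60 without MSC 1, where the call was lost. The other chromosome 3 cluster (15274393, chr3:38236143-38236249) read 3.79, 3.59 and 2.88 in MSC livers and 4.21, 4.51 and 3.88 in controls, with a difference of −0.78, and −0.62 and no call without control 2.

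**Figure D2:**
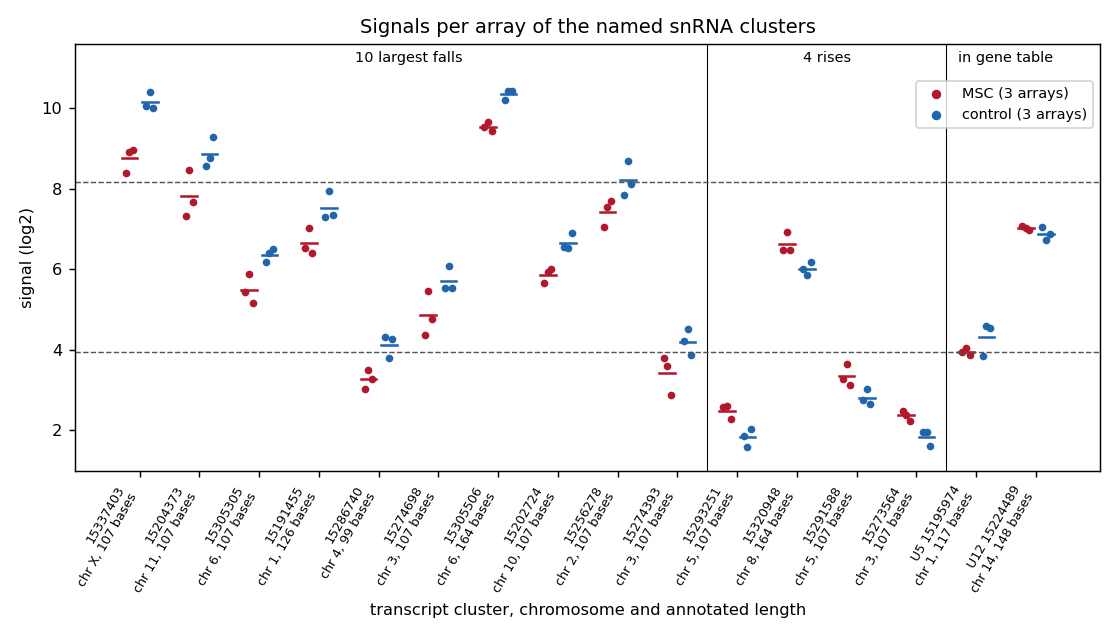
Signal (log2) of each array in the 10 largest falls and the 4 rises whose groups do not overlap and in U5 and U12, MSC (3 arrays) left and control (3 arrays) right of each tick, short bars for group means and dashed lines for the antigenomic median (3.95) and 95th percentile (8.18). The falls reach up to the brightest cluster, at 9.44 to 9.67 in MSC and 10.20 to 10.44 in control, while 3 of the 4 rises stay below the antigenomic median.

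Of the 9 clusters that rose, 4 had groups that did not overlap. The only one of these above the antigenomic median was a cluster of 164 bases with unique probes on chromosome 8 (15320948, ENSSSCG00000019002, chr8:76752975-76753138), at 6.48, 6.93 and 6.48 in MSC livers and 6.01, 5.85 and 6.18 in controls. Its difference was 0.62 (0.23 to 1.00, limma adjusted p = 0.736), and 0.47 and no call without MSC 2. A cluster of 107 bases on chromosome 5 (15293251, chr5:44811564-44811670) read 2.59, 2.60 and 2.28 in MSC livers and 1.87, 1.58 and 2.03 in controls, a difference of 0.67 (0.29 to 1.04), and it was the only one of these 4 to keep its call with each array left out. All its values lie under the antigenomic median.

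A second cluster on chromosome 5 (15291588, chr5:11415982-11416088) differed by 0.53 (0.13 to 0.93), with MSC livers at 3.28, 3.64 and 3.12 and controls at 2.76, 3.03 and 2.66. It lost its call without MSC 2 (0.38), control 1 (0.50) or control 3 (0.45). A cluster on chromosome 3 (15273564, chr3:13440171-13440277) also differed by 0.53 (0.19 to 0.86), with MSC livers at 2.49, 2.39 and 2.24 and controls at 1.96, 1.96 and 1.62, and lost its call without MSC 1 (0.47) or control 3 (0.41). The rise of the largest size, on chromosome 14 (15229770), rested on overlapping groups, at 4.28, 2.90 and 4.53 in MSC livers and 2.70, 2.63 and 3.01 in controls (1.12, 0.23 to 2.02).

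Neither RNA with a name passed the threshold. U12, which pairs with the branch point of minor introns, was read by 14 unique probes (chr14:37558501-37558648, 148 bases) at 7.08, 7.03 and 6.98 in MSC livers and 7.05, 6.74 and 6.88 in controls. The groups overlapped, and the interval of the difference of 0.14, between −0.15 and 0.43, leaves out the sizes at which falls were called. U12 lies within the cluster of FBXO21, an F-box protein, on the same strand, whose difference was 0.12. U5, which holds the exons in the spliceosome, was read by 8 probes of type 3 (chr1:180909303-180909419, 117 bases). Its signal was 3.94, 4.05 and 3.88 in MSC livers and 3.84, 4.60 and 4.55 in controls. Control 1 lay below all MSC arrays, and the difference of −0.37 (−0.85 to 0.11) did not pass. Without control 1 it was −0.62, and with array weights −0.52, and both of these passed the threshold. A cluster of 116 bases that starts 8355 bases upstream (15195976, mean 4.85) differed by 0.00 (−0.39 to 0.40).

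The share of clusters that fell grew with signal. Below the antigenomic median 12 of 348 snRNA clusters were lower and 7 higher in MSC livers, with a median difference of −0.033. Between the antigenomic median and 95th percentile 26 of 195 (13.33%) were lower and 2 higher, with a median of −0.169. Of the 8 clusters above the 95th percentile, 5 were lower and none higher, all 8 differences were negative, and their median was −0.691. Over all tested clusters the lower share in the same bands was 1.03%, 1.45% and 1.65%, and the higher share 0.793%, 1.08% and 1.95%. The bands were defined from antigenomic probes and not from the contrast, but the 551 clusters share probes and no test was made of this trend.

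The 8 brightest clusters include the falls on chromosomes X, 6 and 11 described above and a fall of 164 bases on chromosome 7 (15311450, −0.57), whose values follow with its neighbours. A further fall, named here after its values were seen, was on chromosome 16 (15244112, chr16:22937801-22937907, 5 probes), at 7.49, 8.87 and 7.60 in MSC livers and 8.84, 9.06 and 9.16 in controls. MSC 2 overlapped with control 1 there, and the difference was −1.03 (−1.82 to −0.25). It lies on the strand opposite to SLC1A3, a glutamate transporter, which differed by −0.29. The remaining 3 did not pass the threshold. These were a cluster of 111 bases on chromosome 7 within PRIM2 (15315375, −0.42, all MSC values below all control values), one of 106 bases on a scaffold (15197492, −0.23) and one of 107 bases on chromosome 4 (15283405, −0.21).

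**Figure D3:**
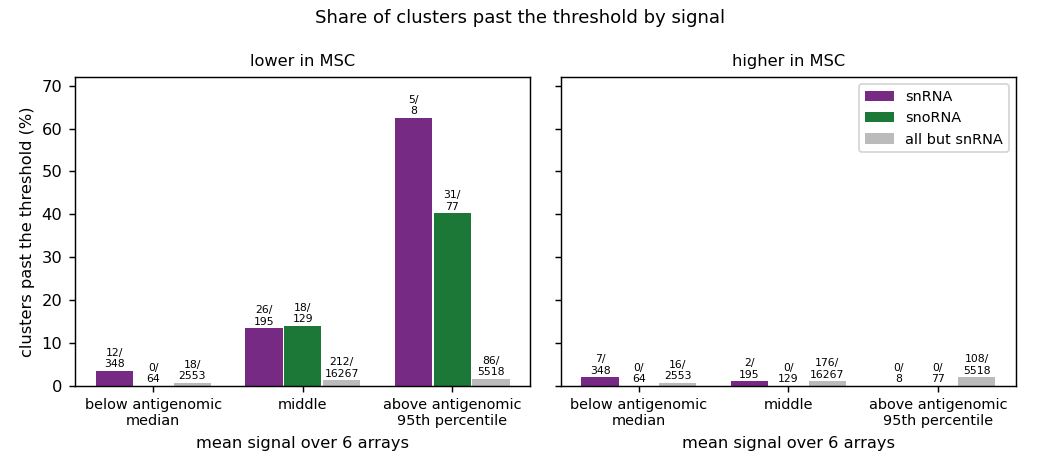
Percent of clusters past the threshold, lower (left panel) and higher (right panel) in MSC, by mean signal below the antigenomic median, between it and the antigenomic 95th percentile, and above that, for snRNA, snoRNA and all clusters but snRNA; numbers over the bars give the count and its total. For the lower share, snRNA and snoRNA clusters climb with signal, to 5 of 8 and 31 of 77, while the other clusters stay under 2%.

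Small nucleolar RNAs (snoRNAs), which guide chemical modification of ribosomal RNA and snRNA, are another class of short nuclear RNA on the array. Lower in MSC livers were 49 of 270 snoRNA clusters (18.15%) and higher 0, with a median difference of −0.218. By signal 0 of 64, 18 of 129 and 31 of 77 (40.26%) snoRNA clusters were lower. Of 185 miRNA clusters 4 were lower and 1 higher (median −0.044), and of 95 clusters of the class misc_RNA again 4 and 1 (median −0.074). Protein-coding Ensembl genes had 50 of 5030 lower (0.99%) and 77 higher (1.53%). No test was made between these classes. The median signal of the snRNA clusters was 3.14, 3.32 and 3.23 in MSC livers and 3.28, 3.34 and 3.32 in controls. The antigenomic probe sets had medians of 3.80, 4.08 and 3.87 on the MSC arrays and 4.07, 4.02 and 3.84 on the control arrays, so MSC 1 was lowest in both. The part of this in the snRNA result was not tested.

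By annotated length the clusters fell mostly into 1 narrow peak. From 90 to under 120 bases there were 479, of which 229 have exactly 107 bases, and 37 of the 479 were lower and 8 higher in MSC livers (median −0.071, median signal 3.19). From 120 to under 150 bases 2 of 21 were lower and 0 higher (median −0.101, median signal 3.15). The 26 clusters from 150 to under 170 bases had a median signal of 6.01, with 22 at or above the antigenomic median, and 4 of them were lower and 1 higher (median −0.156). None of the 19 clusters from 170 to under 200 bases passed the threshold, and 15 of their differences were negative (median −0.216). Among these are 8 clusters of exactly 191 bases, with differences between −0.45 and 0.18. The 6 clusters under 90 bases gave no call.

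**Figure D4:**
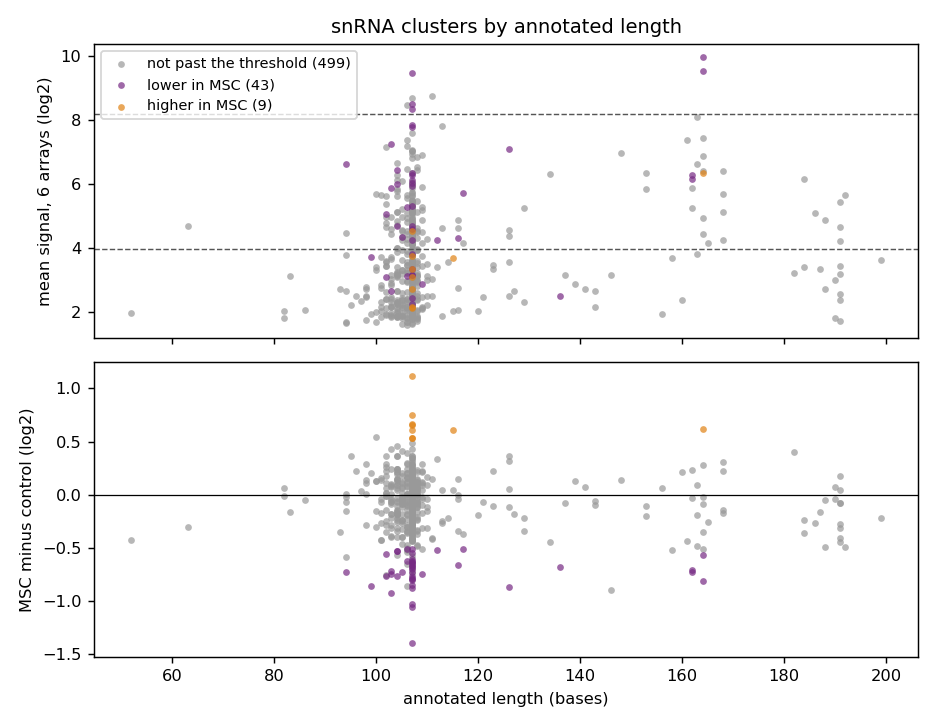
Mean signal over 6 arrays (upper panel, log2) and difference MSC minus control (lower panel, log2) of the 551 snRNA clusters against annotated length in bases; dashed lines are the antigenomic median and 95th percentile. Most clusters stack up near 107 bases over the whole range of signals, and those from 150 to under 170 bases sit mainly above the antigenomic median.

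Clusters of equal length did not all get the same call. Of the 8 clusters of 164 bases, all with a mean above the antigenomic median, 2 were lower, 1 was higher and 5 did not pass, and 6 of the 8 differences were negative (median −0.219). Next to each other on chromosome 7 lie 4 clusters of 162 or 164 bases, and 3 of them fell. The brightest (15311450, chr7:70005845-70006008, 164 bases, 2 rows) read 9.13, 9.35 and 9.26 in MSC livers and 9.63, 10.06 and 9.76 in controls, a difference of −0.57 (−0.91 to −0.23). Upstream of it a cluster of 162 bases (15311452, chr7:69996011-69996172, minus strand) read 5.53, 6.09 and 5.74 in MSC livers and 6.27, 6.60 and 6.67 in controls (−0.73, −1.15 to −0.31). The next one, 1545 bases on and on the plus strand (15317287, chr7:69997556-69997717), read 5.67, 6.19 and 5.83 in MSC livers and 6.38, 6.70 and 6.75 in controls (−0.71, −1.12 to −0.31). Array by array the pair ran in parallel, and both have 25 probes of type 3, so that the pair is not independent evidence. Each of them is still included in the counts given here, since only rows with the same 6 values were merged.

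The last of the 4 on chromosome 7 (15317283, chr7:70022593-70022756, 164 bases) read 7.03, 7.19 and 7.91 in MSC livers and 7.50, 7.29 and 7.61 in controls. MSC 3 was the highest of all arrays there, and the difference was −0.09 (−0.62 to 0.44). A cluster of 164 bases with unique probes on chromosome 11 (15203435) differed by −0.02 (−0.31 to 0.26) at a similar signal, 6.94, 6.74 and 6.92 in MSC livers and 6.93, 6.99 and 6.76 in controls. Among all 12 clusters of 162 or 164 bases, the 4 falls were of type 3 and the 1 rise was of type 1.

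**Figure D5:**
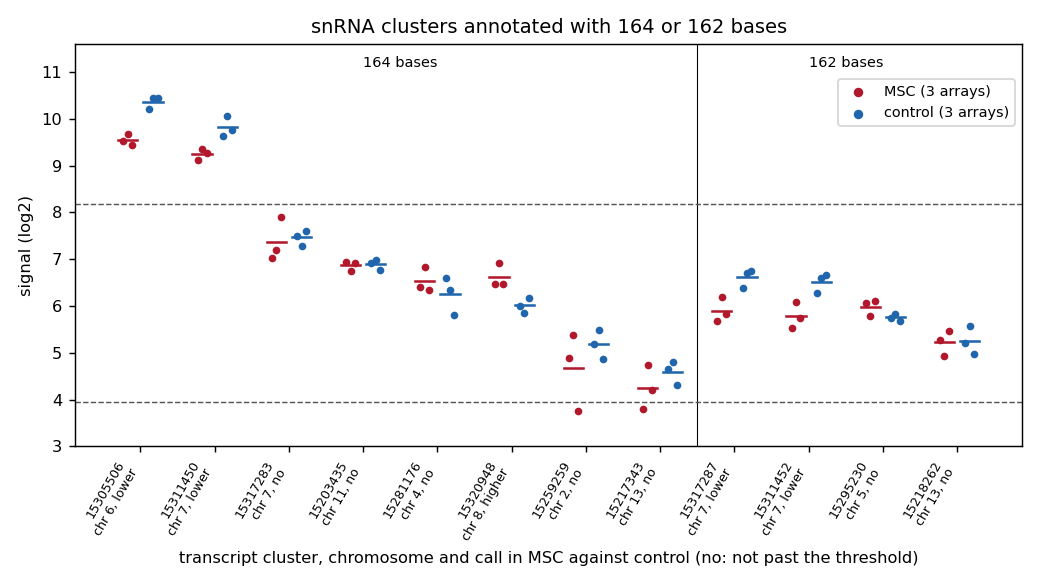
Signal (log2) of each array in the 8 clusters of 164 bases and the 4 of 162 bases, ordered by mean signal, MSC (3 arrays) left and control (3 arrays) right of each tick, short bars for group means and dashed lines for the antigenomic median and 95th percentile. The MSC values lie below the control values in 4 clusters, on chromosomes 6 and 7, and above them in 1, on chromosome 8, and elsewhere the groups overlap.

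The calls were also set against the kind of probe. Of the 131 clusters with unique probes 4 were lower (3.05%) and 2 higher (1.53%), with a median difference of −0.062. Of the 420 with mixed probes 39 were lower (9.29%) and 7 higher (1.67%), with a median of −0.080. The medians were thus close, while the lower share in clusters with unique probes was nearer to the 1.44% of all tested clusters. Whether the classes differ was not tested, since their clusters share probes and reach different signals. The few clusters with under 8 probes had 4 of 31 lower and a median of −0.237, and those with 8 or more had 39 of 520 lower and 9 higher.

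Many snRNA clusters lie within the span of another cluster on the array. On the same strand as their host were 77, of which 13 (16.88%) were lower and 0 higher, with a median signal of 4.58. On the strand opposite to it were another 77, with 6 lower and 1 higher, at a median signal of 3.33. Of the 397 outside any other cluster 24 (6.05%) were lower and 8 higher, at 3.10. The host clusters themselves moved little, with a median difference of −0.08 on the same strand and 0.00 on the opposite one. Beside the 13 lower members on the same strand the median of their hosts was −0.09, and 1 of these hosts, which has no name, was itself lower.

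The 43 lower clusters had a median difference of −0.721, with sizes between −1.40 and −0.51, and a median signal of 5.29. The groups did not overlap in 31 of them. These clusters were picked by this same contrast, so their differences and separation follow from the pick and are description only. Their mean signal was 4.92, 5.25 and 4.94 in MSC livers and 5.66, 5.86 and 5.75 in controls. MSC 2 was the highest of the MSC arrays in 27 of the 43, and control 1 the lowest of the controls in 23. With each array left out in turn, 20 of the 43 lower clusters and 1 of the 9 higher ones kept their calls. The 9 higher clusters, picked in the same way, averaged 3.85, 3.92 and 3.79 in MSC livers and 3.18, 3.11 and 3.24 in controls. Outside the threshold lay 16 clusters with a difference of at least 0.5 but a p in limma of 0.0582 or more. Another 25 had a p under 0.05 but a smaller difference, and 23 of these were negative.

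None of the measured genes for proteins that work with snRNAs passed the threshold. In 5 lists with 114 genes, 58 were measured, meaning that a cluster carried that gene's name alone. Of these, 0 passed the threshold in either direction. The other genes were not matched by name and may still be on the array, so the result does not cover them. Among all named genes 1.07% were lower and 1.46% higher. Of the 58, 16 had a negative difference, and 36 had a mean signal of at least 8.18, the upper antigenomic limit. Among all clusters but snRNA above that limit, 35% of differences were negative and their median was 0.069. Over all tested clusters these values were 53.1% and −0.014. Bright clusters thus leaned towards positive differences, and the part of this in the list medians was not tested. An unadjusted p under 0.05 in limma was reached by 3 of the 58, beside 6.49% of all tested clusters, and these 3 differences were positive. Of the proteins of the major snRNPs 21 of 38 were measured, with a median difference of 0.149. SNRPA, the U1 protein that binds a loop of U1 RNA, read 9.46, 9.35 and 9.50 in MSC livers and 9.09, 9.13 and 9.11 in controls. Its groups did not overlap, but the difference of 0.33 (0.07 to 0.58) is under the threshold. PRPF8 and EFTUD2, which sit with U5 at the core of the spliceosome, differed by 0.18 and 0.19.

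Of the proteins of the minor spliceosome 5 of 11 were measured, with a median of −0.084, among them RNPC3 (−0.19), which bridges U11 and U12, SNRNP48 (−0.13) and PDCD7 (0.10). The genes for transcription of snRNA and for cleavage of its 3′ end (11 of 26 measured) had a median of 0.143. INTS3 of the Integrator complex differed by 0.38 (0.08 to 0.68), ICE2 of the little elongation complex by 0.32 (0.51 and past the threshold without MSC 2) and INTS6 by 0.18. For export, assembly of the Sm ring and the cap (13 of 24) the median was 0.099, with GEMIN5, which binds snRNA for the SMN complex, at 0.35, WDR77 of the methylosome at 0.29 and GEMIN4 at 0.22. For handling of U6 and 7SK RNA (8 of 15) it was 0.087, with the U6 exonuclease USB1 at 0.21, the methyltransferase METTL16 at 0.15 and LSM7 of the LSm ring at 0.15.

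Markers of other liver cell types moved between the same samples. Beside them, 1.07% of all named genes were lower and 1.46% higher. Of 5 measured endothelial markers 2 were lower in MSC livers, VWF (−0.71) and FLT1 (−0.53), and the list averaged 8.27 to 8.75 in MSC livers and 8.42 to 9.27 in controls. Of 4 bile duct markers 2 were lower, CFTR (−0.94) and EPCAM (−0.77), with list means of 7.13 to 7.73 in MSC livers and 7.61 to 8.31 in controls. For EPCAM the groups overlapped, with MSC 2 at 7.70 and control 1 at 7.56. All 6 markers of stellate cells and fibroblasts had negative differences and none passed, with list means of 9.38, 9.85 and 9.56 in MSC livers and 9.20, 10.54 and 10.42 in controls. Control 1 stood apart from the other two controls in these 3 lists, with 8.42 against 9.27 and 9.05 for endothelial and 7.61 against 8.31 and 8.28 for bile duct markers. The hepatocyte and T and NK cell markers gave no call, nor did the 2 of 5 macrophage markers that were matched by name. Of these 2, CD14 differed by 0.48 (0.19 to 0.78) and MARCO by −0.28 (−0.59 to 0.04), both with groups that did not overlap. In bulk tissue, fewer cells of a type and less RNA per cell cannot be told apart, and the part of these cell types in the snRNA result was not tested.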

How the data were processed

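Total RNA of 6 liver biopsies, purified by the authors with Trizol and spin columns, was measured on Porcine Gene 1.0 ST arrays. The authors deposited log2 signals per transcript cluster, made with RMA in Affymetrix Expression Console 1.4 (background correction, quantile normalization, median polish). RMA compresses differences of weak clusters. These values were used as they are. The deposited probe count per cluster, biotype, Ensembl position (Sscrofa10.2), length and crosshyb_type came from the annotation workbook, whose 6 signal columns have names found in no label and were left aside. For the array's own positions, used for overlaps, no build was named in the sources at hand.

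The 25385 clusters of category main or rescue were fitted in limma 3.58.1 (R 4.3.3; lmFit and eBayes, 4 residual and 3.8 prior degrees of freedom), and 2173 control probe sets were left out. The threshold is the study's limma threshold, which the paper applied to signals summarised with Brainarray annotation. For the Expression Console signals the paper states a t-test with p under 0.05 and more than 2-fold. Adjusted p-values are Benjamini-Hochberg over all 25385. Rows with the same 6 values were counted once. Intervals are 95% from limma. With 3 arrays a group, the number of arrays limits precision.

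Named clusters are the up to 10 largest falls and rises past the threshold whose groups do not overlap, plus those with an RNA name, and up to 3 genes of each protein list by smallest p; all other clusters given with values were chosen after their values were seen. A gene of a list counts as measured if a cluster carried its name alone. Clusters without a name or with several names were not used for the lists. For genes with several clusters the one of the highest mean was used. Members and lists were chosen with earlier results of these data known. Alternatives were other scalings, filters, thresholds, array weights, a replicate block and leaving out each array.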

Additional observations from a re-analysis of the deposited data

How the results depend on the processing

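The count of 43 lower and 9 higher snRNA clusters moved with the threshold and with the choice of members. With Benjamini-Hochberg adjustment it was 0 and 0, with the methods' t-test (p under 0.05 and more than 2-fold) 1 and 0, and with an unadjusted p alone 66 were lower. With clusters under the antigenomic 95th percentile left out, 8 members remained, 5 lower and 0 higher, with a median difference of −0.691. With those under the antigenomic median left out, 203 remained, 30 lower and 2 higher, with a median of −0.178. With unique probes only, 4 were lower and 2 higher of 131. Of the 397 members outside other clusters, a choice made after seeing the data, 24 were lower. Leaving out single arrays gave 34 to 58 lower, 5 to 11 higher, a median of −0.099 to −0.050, and 0 to 1 protein genes; by p alone 3 protein genes passed. The fit with the replicate block gave 48 lower and 9 higher, with all 43 lower clusters among the 48. Over all tested clusters 1.63% were lower in that fit. Deviations of same-numbered arrays from their group means correlated at −0.016, 0.252 and −0.085. With 3 arrays a group, these values cannot show whether the numbers pair the samples. Median centring and repeated quantile normalization gave 35 lower each, with a median difference of −0.040 and −0.048. Median centring shifts the differences of all tested clusters by the same amount, so it does not change the snRNA clusters relative to the rest. Array weights, lowest for control 1 (0.447), gave 55. The shares over all tested clusters under these settings were not worked out, so the counts have no reference. Of 225 values under alternatives of the 14 named falls and rises, 187 kept the call, 38 lost it and 0 turned. The adjusted threshold lost all 14 calls and the methods' t-test 13. An unadjusted p alone is looser than the rule that picked the 14 and could lose none. Some other alternatives nearly repeat the main fit, so the 187 does not measure robustness. U5 and U12, without a call, gained one in 2 of 33, both for U5 (without control 1 and with array weights). Signal over background is 1 limit: 348 of the 551 clusters lie under the antigenomic median.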

Other observations

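By annotated position the lower snRNA clusters were spread over many chromosomes. Since 39 of the 43 have mixed probes that can read near copies, these positions do not show where the RNA came from. Chromosome 6 held 6 of the 43 among its 45 clusters (13.33%). Chromosomes 1, 3 and 7 held 5 each among 64, 31 and 28 (7.81%, 16.13% and 17.86%), and chromosomes 15 and 17 held 0 among 30 and 14. The lower share was 7.80% over all snRNA clusters and 1.44% over all tested clusters. With so few clusters on each, differences between chromosomes were not tested. The median difference was positive on chromosomes 8 (0.057), 14 (0.019) and 12 (0.005). Chromosome 8 had 1 lower and 2 higher of 21, chromosome 14 had 2 and 1 of 40, and chromosome 12 had 1 and 1 of 17. Within 100000 bases of a neighbour, a distance set after the positions were seen, lay 30 clusters in 14 groups, and the 3 calls among them were those on chromosome 7 already described. The 57 clusters whose values are carried by more than 1 row of the array had 8 lower (14.04%) and 0 higher, with a median of −0.073. Of the 43 clusters with exactly 25 probes 6 were lower (13.95%) and 0 higher.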
